A study of Mus musculus with 8 samples.

Results

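High-mitochondrial barcodes are the cell barcodes of this single-cell RNA-seq series in which more than 20% of the unique molecular identifiers (UMIs, each standing for 1 captured RNA molecule) came from genes of the mitochondrial genome. They were chosen by that share: a barcode had to hold at least 300 detected genes and more than 20% of its UMIs in genes whose symbol starts with mt-. A barcode listed in several libraries of the same date stamp was kept only in the library where it held most UMIs. The rule found 1021 such barcodes among 10217 barcodes with at least 300 genes, or 9.99%. They were set against 5567 comparison barcodes, which had at least 300 genes, at most 20% mitochondrial UMIs and a total UMI count within the range of the high-mitochondrial barcodes of the same library. All mt- genes were removed before any other gene was scaled. Since the mitochondrial share chose the barcodes, it is given below as a description and is not tested.

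Bone marrow from the hind limbs of C57Bl/6J mice labelled male and aged 10 weeks was cultured for 3 days with M-CSF, the growth factor that turns marrow progenitors into macrophages. In the CYR61 group the cultures then received 4 µg/mL CYR61 for 24 h, and in the control group they received none. M-CSF culture, strain, labelled sex, age and the accutase used to detach the cells were common to both groups. Sex-linked RNA differed among the libraries of each group, as given below. CYR61 is a secreted matricellular protein, encoded by Ccn1, that binds integrins. Each group had 4 libraries made on the HIVE platform, which captures single cells in picowells. The labels do not tell whether the 4 came from separate animals or cultures, although sex-linked RNA differed within each group. Every p-value measures the spread between libraries, which may be technical in part. Replicates 1 and 2 of each group carry an earlier date stamp and replicates 3 and 4 a later one.

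Mitochondria carry a small genome that codes for a pair of ribosomal RNAs, transfer RNAs and a few subunits of the respiratory chain, whereas all other mitochondrial proteins are made from nuclear genes and imported. Mitochondrial RNA stays inside the organelle, so a cell whose outer membrane leaks loses cytosolic RNA first, and a high mitochondrial share is widely used as a sign of a damaged cell. Cells rich in mitochondria can also have a raised share, and the share alone does not separate these cases.

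Pieces of the mitochondrial genome have also been copied into nuclear chromosomes over evolution, and reads from the organelle can be counted on such copies. In the GENCODE vM21 annotation of build GRCm38 (mm10), 28 nuclear gene models shared at least 1 run of 25 bases with a mitochondrial gene. The following windows of 60 bases are shown because these copies carry part of the results below, and they show how few bases separate organelle and copy. The first pair is from mt-Rnr2, the large ribosomal RNA (chrM:1898-1957, plus strand), and Gm20594 (chr6:79818079-79818138, plus strand). The second is the start of mt-Co1, a catalytic subunit of cytochrome oxidase (chrM:5328-5387, plus strand), and of its copy Gm13340 (chr2:22589588-22589647, minus strand). The third group is the start of mt-Co2, another subunit of that enzyme (chrM:7013-7072, plus strand), with Gm28661 (chr1:24615506-24615565, minus strand) and Gm13341 (chr2:22587903-22587962, minus strand). All are written 5′ to 3′ along the transcript, and capitals mark the bases at which a copy differs from the mitochondrial gene.
mt-Rnr2: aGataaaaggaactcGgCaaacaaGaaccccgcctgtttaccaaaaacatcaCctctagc
Gm20594: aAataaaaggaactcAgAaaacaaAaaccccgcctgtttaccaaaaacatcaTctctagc
mt-Co1: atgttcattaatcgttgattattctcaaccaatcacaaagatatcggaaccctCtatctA
Gm13340: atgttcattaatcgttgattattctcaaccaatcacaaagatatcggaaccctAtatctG
mt-Co2: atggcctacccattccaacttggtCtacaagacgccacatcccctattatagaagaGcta
Gm28661: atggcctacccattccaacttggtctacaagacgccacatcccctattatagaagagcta
Gm13341: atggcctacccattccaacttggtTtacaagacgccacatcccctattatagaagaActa

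Gm20594 differed from mt-Rnr2 at 5 of the 60 bases shown and was 88.51% identical over 435 aligned bases, and Gm13340 was 97.61% identical to mt-Co1. Gm28661 did not differ from mt-Co2 at any base of the window and was 100% identical over its 681 bases. It is one of a run of copies on chromosome 1 that match mt-Co2, mt-Atp6, mt-Co3, mt-Nd4l, mt-Nd3, and parts of mt-Nd4 and mt-Co1. Of these, mt-Nd4 and mt-Co1 were well counted, at 3519 and 10280 UMIs in the high-mitochondrial barcodes, although the copy of mt-Nd4 is 100% identical over 876 bases and that of mt-Co1 99.79% identical over 483 aligned bases. The first 4 were at or near 0 in the tables: mt-Co2 had 0 UMIs in the high-mitochondrial barcodes and 0 in the comparison barcodes, mt-Atp6 had 0 and 2, and mt-Co3 had 1 and 4. Their copies on chromosome 1 were as rare, at 0 and 2 UMIs for Gm28661. Gm13341, the copy of mt-Co2 on chromosome 2, had 67 UMIs in the high-mitochondrial and 193 in the comparison barcodes. How multiply mapped reads were handled is not given in the sources used here, and the mitochondrial share rests on the mitochondrial genes that have counts.

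Several features of the libraries bear on all results. Each library was deposited with 5000 barcodes, and total UMIs ran from 2105422 to 16318946 in the CYR61 libraries and from 1379637 to 5468740 in the control libraries. A sequence of 12 bases serves as barcode, and 254 of the high-mitochondrial barcodes (24.9%) were also listed in another library of their date stamp, against 483 comparison barcodes (8.68%). Most of these were in control replicate 4, where 197 of its 261 high-mitochondrial barcodes were also listed in CYR61 replicate 3, with a median of 854 UMIs in control replicate 4 and 300 in CYR61 replicate 3. In addition, 100 high-mitochondrial barcodes (9.79%) and 1131 comparison barcodes (20.3%) were 1 base away from a barcode of the same library with more UMIs. All mice were labelled male, yet the female-specific RNA Xist was present at 1037 to 1207 CPM (counts scaled to the same total of non-mitochondrial UMIs in each library and class) in the comparison barcodes of CYR61 replicates 1 and 2 and control replicates 2 and 3, and at 0 in the other libraries, where Y-linked RNA was present instead. The high-mitochondrial barcodes followed their own libraries, with 148 and 346 Xist UMIs in CYR61 replicates 1 and 2, 16 and 20 in control replicates 2 and 3, and 0 elsewhere. No doublet caller was run.

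The share of high-mitochondrial barcodes differed more among libraries of a group than between the groups. In the CYR61 libraries they were 168 of 2139 barcodes (7.85%), 461 of 4065 (11.3%), 3 of 502 (0.598%) and 28 of 1093 (2.56%) in replicates 1 to 4. In the control libraries they were 53 of 1111 (4.77%), 24 of 339 (7.08%), 23 of 317 (7.26%) and 261 of 651 (40.1%). Control replicate 4 stood far above all other libraries, with a 95% Wilson interval of 36.4% to 43.9% that covers counting error only. CYR61 replicates 1 and 2 and control replicate 4 together supplied 890 of the 1021 barcodes, or 87.2%.

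CYR61 libraries had a mean share of 5.59% ± 4.91 and control libraries one of 14.8% ± 16.9 (SD over 4 libraries each), and the groups overlapped. The difference of -9.21 percentage points gave p = 0.429 in an exact two-sided permutation test over 70 assignments, and 0.679 after Benjamini-Hochberg adjustment over 10 barcode measures tested in this way. The smallest p this design allows is 0.0286. Without control replicate 4 the difference was -0.780 points. Within the earlier date stamp the share was 3.67 points higher in CYR61 libraries, and within the later one it was 22.1 points lower, a difference between dates of 25.8 points whose exact permutation p of 0.0556 is the smallest that its 36 assignments can give.

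**Figure D1:**
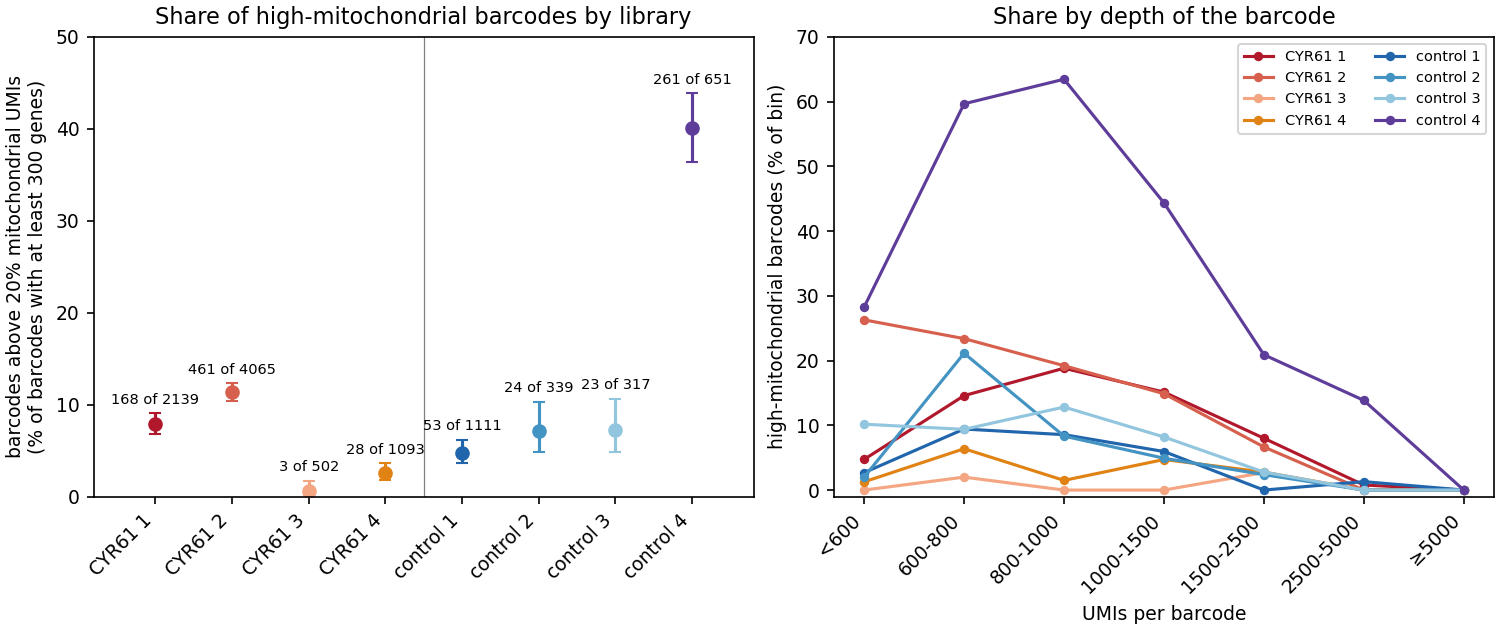
Left, the percentage of barcodes with at least 300 genes that had more than 20% mitochondrial UMIs, for each library, with 95% Wilson intervals for counting error and the counts above; right, the same percentage by the number of UMIs per barcode. Control replicate 4 is at 40.1% and the other 7 libraries lie between 0.598% and 11.3%, and all libraries are at 0 from 5000 UMIs upward.

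Most of these barcodes lay just above the threshold. Their median mitochondrial share was 23.7% (quartiles 21.6% and 26.6%, highest 76.3%), and 633 of them (62.0%) were between 20% and 25%. A further 280 were between 25% and 30%, 88 between 30% and 40%, and 20 above 40%. Around the threshold there was no gap: 165 barcodes had between 20% and 21% mitochondrial UMIs, and 243 barcodes outside the class had between 19% and 20%. The number of barcodes in the class therefore depends on where the line is drawn.

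The median share of the high-mitochondrial barcodes was alike in most libraries. It was 23.5%, 23.7%, 22.1% and 22.9% in CYR61 replicates 1 to 4 and 22.4%, 21.5%, 21.2% and 24.7% in control replicates 1 to 4. In the comparison barcodes of the same libraries it was 13.3%, 13.9%, 5.06% and 10.8% with CYR61 and 9.22%, 13.5%, 15.7% and 13.6% in controls. Control replicate 4, which had the largest share of high-mitochondrial barcodes, also had the highest median in barcodes of at least 5000 UMIs, 9.53%, where the other libraries ranged from 3.05% to 6.58%. Barcodes under 300 genes, which no class includes, carried 21.1%, 30.1%, 10.0% and 13.5% mitochondrial UMIs in CYR61 replicates 1 to 4 and 12.5%, 17.2%, 19.6% and 27.4% in control replicates 1 to 4.

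High-mitochondrial barcodes were shallow. They held from 498 to 4671 UMIs with a median of 818, and none of the 1804 barcodes with at least 5000 UMIs was among them. Over all libraries they made up 7.13% of barcodes under 600 UMIs, 19.4% of those with 600 to 800, 17.9% with 800 to 1000, 14.0% with 1000 to 1500, 6.47% with 1500 to 2500 and 1.19% with 2500 to 5000. The pooled bins mix libraries: in CYR61 replicate 2, which holds 461 of the barcodes, the share was highest under 600 UMIs, at 26.3%, and was 23.4%, 19.2% and 14.9% in the next 3 bins. In control replicate 4 the same bins held 28.3%, 59.6%, 63.4%, 44.3%, 20.9% and 13.8%, the highest value of any library in each bin. Spearman's correlation between UMIs and mitochondrial share across the barcodes of a library, given as a description, was negative in all 8 libraries and ranged from -0.738 to -0.150. It relates measures that share the same UMIs.

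Other barcode measures did not separate the groups. The median UMI count of high-mitochondrial barcodes was 806 ± 70.1 with CYR61 (n = 3 libraries) and 781 ± 22.8 in controls (n = 4), and the median gene count was 400.3 ± 35.2 and 388.4 ± 10.96 in the same order. CYR61 replicate 3, which had only 3 such barcodes, was left out of these and of all later fits. All 10 measures had adjusted p-values of at least 0.679 in the exact permutation test, which does not show that the groups were alike.

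Within the mitochondrial UMIs, the ribosomal RNAs took most of the reads in both classes. mt-Rnr2 and mt-Rnr1, the large and small ribosomal RNAs, supplied 86.3% of the mitochondrial UMIs in the high-mitochondrial barcodes and 85.9% in the comparison barcodes. When these 2 genes were left out, only 8 barcodes of the series still exceeded 20%. Of 29 mt- genes listed, 20 had any UMI in the high-mitochondrial barcodes and 8 had at least 1% of the mitochondrial UMIs.

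How the mitochondrial UMIs split among genes was not used by the rule and could be tested. mt-Rnr2 took 58.4%, 58.5% and 62.5% of mitochondrial UMIs in the high-mitochondrial barcodes of CYR61 replicates 1, 2 and 4, and 58.2%, 62.9%, 61.6% and 51.1% in control replicates 1 to 4. Control replicate 4 was the lowest of the 7 libraries for mt-Rnr2 and the highest for mt-Rnr1, at 34.5%, and mt-Co1, at 5.28%. Over 7 libraries mt-Rnr2 averaged 59.0% ± 4.04 in high-mitochondrial and 58.5% ± 5.48 in comparison barcodes (adjusted p = 0.688, exact two-sided sign-flip permutation test). mt-Rnr1 averaged 28.9% ± 2.69 and 27.8% ± 3.12 and was higher in the high-mitochondrial barcodes in 6 of 7 libraries (adjusted p = 0.156, exact permutation).

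Among the messenger RNAs of the respiratory chain no difference in the share of mitochondrial UMIs passed the adjusted threshold of 0.05. mt-Co1 averaged 3.55% ± 0.988 in high-mitochondrial and 4.201% ± 1.36 in comparison barcodes, lower in 6 of 7 libraries (exact permutation p = 0.0312, adjusted 0.156). mt-Cytb, the cytochrome b subunit of complex III, averaged 2.09% ± 0.514 and 2.57% ± 0.807 in the same order (exact permutation p = 0.0469, adjusted 0.156). Among the genes of complex I, which passes electrons from NADH into the chain, mt-Nd1 averaged 1.80% and 2.05%, mt-Nd2 1.28% and 1.32%, mt-Nd4 1.34% and 1.47%, and mt-Nd5 1.92% and 1.89%. The smallest p that 7 libraries allow is 0.0156 before adjustment over the 8 genes. A gene at that p could not pass after adjustment unless other genes reached it too. The lack of calls was therefore close to fixed in advance and does not show that the classes were alike. Without barcodes 1 base from a deeper barcode, with 5 libraries left, the difference was -0.21 points for mt-Co1, -0.01 for mt-Cytb, 0.01 for mt-Nd1 and 0.35 for mt-Nd5, so the direction for messenger RNAs was not stable.

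Set against all UMIs of the barcode, which is the quantity the rule fixed, mt-Rnr2 made up 14.3% ± 1.12 of high-mitochondrial and 7.43% ± 1.40 of comparison barcodes. mt-Rnr1 made up 7.03% ± 0.967 and 3.49% ± 0.470, mt-Co1 0.870% ± 0.275 and 0.519% ± 0.137, and mt-Cytb 0.508% ± 0.134 and 0.333% ± 0.129 (SD, n = 7 libraries). The 3 defining markers mt-Co1, mt-Cytb and mt-Rnr2 were thus all higher in the class, as the rule makes them.

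**Figure D2:**
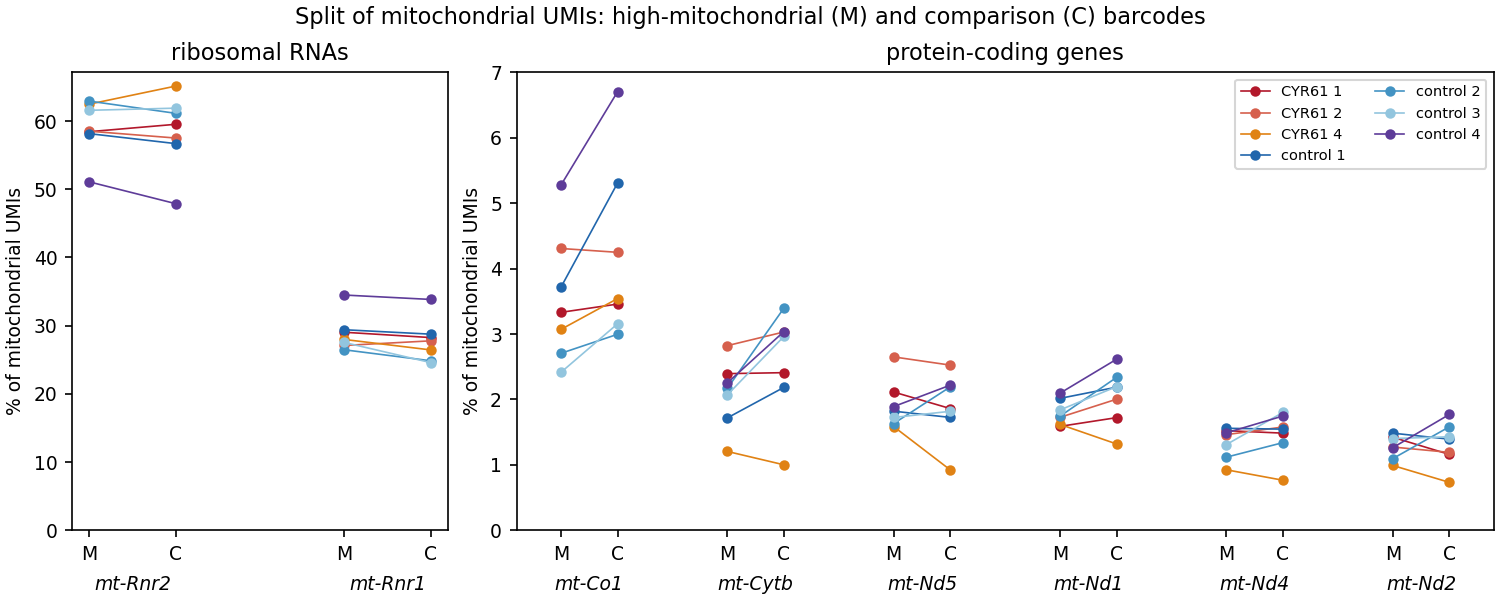
The percentage of mitochondrial UMIs that each of the 8 most abundant mitochondrial genes supplied, in high-mitochondrial (M) and comparison (C) barcodes; lines join the classes of 1 library, and CYR61 replicate 3 is not drawn because it had 3 such barcodes. mt-Rnr2 averages 59.0% in M and 58.5% in C, and mt-Co1 is lower in M in 6 of 7 libraries.

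Outside the mitochondrial genome the high-mitochondrial barcodes differed little from comparison barcodes of the same library. Of 5234 genes tested on counts summed per library and class, 3 (0.0573%) were higher in the high-mitochondrial barcodes and 0 (0%) were lower, by edgeR's quasi-likelihood test with the library as a block at an adjusted p under 0.05. Before adjustment, 231 genes (4.41%) had a p under 0.05, and DESeq2 called 5 of 24235 genes (0.0206%). A gene lower in every one of the 7 libraries was found 108 times (2.06%), and a gene higher in every library 26 times (0.497%). The comparison barcodes had the same range of total UMIs but more non-mitochondrial UMIs, with library medians of 679 to 950, against 556 to 629.5 in the high-mitochondrial barcodes of the same 8 libraries. The 3 called genes were Gm20594, Gm13340 and U1; the first pair falls outside the naming rule and is named after the values were seen.

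Gm20594 (chr6:79817916-79818364), the model that shares sequence with mt-Rnr2, showed the largest called difference. It had 165, 135 and 347 CPM in the high-mitochondrial barcodes of CYR61 replicates 1, 2 and 4 and 408, 322, 192 and 817 CPM in those of control replicates 1 to 4. In the comparison barcodes of the same libraries it had 35.5, 27.1 and 43.0 CPM with CYR61 and 52.8, 81.8, 104 and 267 CPM in controls. The gene was higher in the high-mitochondrial class in 7 of 7 libraries, with a log2 ratio of 2.03 (SE 0.215, edgeR adjusted p = 2.0e-17), although the classes overlap across libraries. Per 1000 mt-Rnr2 UMIs it counted 0.802, 0.696, 10.3 and 1.59 UMIs in high-mitochondrial barcodes of CYR61 replicates 1 to 4, against 0.386, 0.292, 1.16 and 0.523 in comparison barcodes. In controls these ratios were 2.25, 1.78, 1.12 and 4.72 against 0.866, 0.862, 0.948 and 4.16.

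Gm13340 (chr2:22588103-22589647), the copy of mt-Co1, rested on 109 UMIs in the high-mitochondrial and 201 in the comparison barcodes. Its log2 ratio was 1.41 (SE 0.289, edgeR adjusted p = 0.00261), and it was higher in 5 of 7 libraries and at 0 in the high-mitochondrial barcodes of control replicates 2 and 3. Control replicate 4 held 72 of its 109 UMIs, and without that library or without CYR61 replicate 2 the call was lost. Gm13341, the copy of mt-Co2, had a log2 ratio of 1.01 (SE 0.315, edgeR adjusted p = 0.627). Because the barcodes were chosen on mitochondrial RNA and these models share its sequence, their calls are not independent of the rule.

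U1, the spliceosomal small nuclear RNA that recognises the start of introns, was the remaining called gene. It had 149, 55.3 and 174 CPM in the high-mitochondrial barcodes of CYR61 replicates 1, 2 and 4 and 117, 322, 958 and 95.5 CPM in control replicates 1 to 4. The comparison barcodes had 74.5, 28.9 and 60.6 CPM with CYR61 and 29.5, 54.5, 179 and 51.4 CPM in controls. U1 was higher in 7 of 7 libraries with a log2 ratio of 1.29 (SE 0.268, edgeR adjusted p = 0.00261), on 3 to 18 UMIs per library. Without control replicate 3, where it was highest, the adjusted p was 0.234, and with any library left out the log2 ratio lay between 1.13 and 1.45. The call was also lost against barcodes of nearest non-mitochondrial depth (0.97), without barcodes 1 base from a deeper one (0.88), among barcodes listed in 1 library (1.19) and in the libraries with at least 50 such barcodes (1.05). U1 genes form a multicopy family with many near-identical copies, no model of that name is in the annotation used here, and its counts are therefore uncertain.

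Ybx1 (chr4:119277981-119294604), an abundant RNA-binding protein that packages messenger RNA, was higher in 7 of 7 libraries without passing the threshold (log2 ratio 0.54, SE 0.144, edgeR adjusted p = 0.274). It had 1024, 931 and 925 CPM in the high-mitochondrial barcodes of CYR61 replicates 1, 2 and 4 and 670, 773, 1022 and 791 CPM in controls, against 552, 586 and 483 CPM and 585, 709, 671 and 524 CPM in the comparison barcodes. It was called by DESeq2, and by edgeR when barcodes 1 base from a deeper barcode were left out. Ybx1, Gm13341 and, below, Psap, Ctsl, Ctsd, Hspa5, Rps20, Rpl34, Pf4, S100a9, Ngp, Ltf and Camp were picked after their values were seen.

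Genes for proteins made at the endoplasmic reticulum (ER) had lower values on balance in the high-mitochondrial barcodes, and none was called in the main comparison. Of 45 such genes for secreted, lysosomal and membrane proteins, 43 were tested, 0 passed the adjusted threshold, 40 had a negative and 3 a positive log2 ratio, and 13 had an unadjusted p under 0.05. Their median log2 ratio was -0.23, against -0.06 over all 5234 genes, and 5 were lower in every library. Against barcodes of nearest non-mitochondrial depth the list median was -0.12, against 0.01 over all genes. Without the filter on low counts 11 genes were called lower, among them Apoe, Ctsb, Ctsd, Ctsl, Ctss and Psap, while the median of all 24235 genes was -0.43. The list took 10.6%, 10.6% and 11.5% of non-mitochondrial UMIs in the high-mitochondrial barcodes of CYR61 replicates 1, 2 and 4, against 11.7%, 11.2% and 13.2% in comparison barcodes. In control replicates 1 to 4 it took 11.8%, 9.16%, 9.33% and 10.6%, against 12.5%, 9.59%, 10.5% and 11.1%. It was lower in the high-mitochondrial class in all 7 libraries.

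Psap (chr10:60277627-60302597), the precursor of the saposins that help degrade lysosomal lipids, was lower in 7 of 7 libraries with a log2 ratio of -0.39 (SE 0.122, edgeR adjusted p = 0.627). Its levels were 4343, 3963 and 5321 CPM in the high-mitochondrial barcodes of CYR61 replicates 1, 2 and 4 and 5685, 2771, 3386 and 4967 CPM in controls, against 5090, 4925 and 6280 CPM and 6744, 3266, 4143 and 5520 CPM in the comparison barcodes. Ctsl, a lysosomal cysteine protease, had a log2 ratio of -0.42 (SE 0.122, edgeR adjusted p = 0.627), and Ctsd, an aspartic protease of the same compartment, had -0.34 (SE 0.120, edgeR adjusted p = 0.876). Hspa5, the main chaperone of the ER, had a log2 ratio of -0.44 (SE 0.140, edgeR adjusted p = 0.627). Apoe, a secreted lipid carrier, had a log2 ratio of -0.37. Without the count filter the log2 ratios were -0.60 for Psap, -0.62 for Ctsl, -0.55 for Ctsd and -0.60 for Apoe, each called with an edgeR adjusted p of at most 0.00145 and each relative to a lower median of all genes, as given above. Ctsl was also called in barcodes above 30% (-0.85) and with every listing of a barcode (-0.47).

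Genes for proteins made on free ribosomes had log2 ratios nearer the median of all genes, and none was called in the main comparison. Of 40 such abundant genes 36 were tested, with a median log2 ratio of -0.14 and 27 negative values. The plain share of the list went the other way. It took 7.24% ± 1.30 of non-mitochondrial UMIs in high-mitochondrial and 6.94% ± 1.09 in comparison barcodes (SD, n = 7). That share was higher in the high-mitochondrial class in 5 of 7 libraries. The log2 ratios include edgeR's scaling, which plain shares do not. Actb, which codes for cytoskeletal actin, had a log2 ratio of -0.32. It was called lower without the filter (-0.53), where the median of all genes was -0.43. Fth1, the ferritin heavy chain that stores iron, had a log2 ratio of -0.05, though its CPM was higher in 6 of 7 libraries. Cytosolic ribosomal protein genes lay on the other side of the median of all genes: of 89 listed, 50 were tested, 36 had positive and 14 negative log2 ratios, 8 had an unadjusted p under 0.05, and their median was 0.13. Rps20 had a log2 ratio of 0.49 and Rpl34 of 0.54, both higher in 6 of 7 libraries. The list took 1.13% ± 0.284 of non-mitochondrial UMIs in high-mitochondrial and 1.03% ± 0.177 in comparison barcodes and was higher in 5 of 7 libraries. Many ribosomal protein genes have processed pseudogenes that can share their reads, so single values are uncertain.

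RNA retained in the nucleus was measured through long non-coding RNAs. The list took 2.15% ± 0.384 of non-mitochondrial UMIs in high-mitochondrial and 1.75% ± 0.136 in comparison barcodes (SD, n = 7) and was higher in 6 of 7 libraries. Malat1, a very abundant RNA of nuclear speckles, made up most of it, at 20443, 17225 and 25853 CPM in the high-mitochondrial barcodes of CYR61 replicates 1, 2 and 4 and 25362, 18237, 15269 and 17845 CPM in controls. The comparison barcodes had 16281, 14524 and 18372 CPM with CYR61 and 17259, 14106, 15543 and 17222 CPM in controls. The log2 ratio of Malat1 was 0.12 (SE 0.117, edgeR adjusted p = 0.998), and control replicate 3 was the library in which it was lower. It was called against barcodes of nearest non-mitochondrial depth (log2 ratio 0.39) and against barcodes at or below 10% mitochondrial UMIs (0.59), and the list median, 0.12 in the main comparison, was 0.32 at nearest depth. Neat1, which scaffolds paraspeckles, had a log2 ratio of 0.14.

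**Figure D3:**
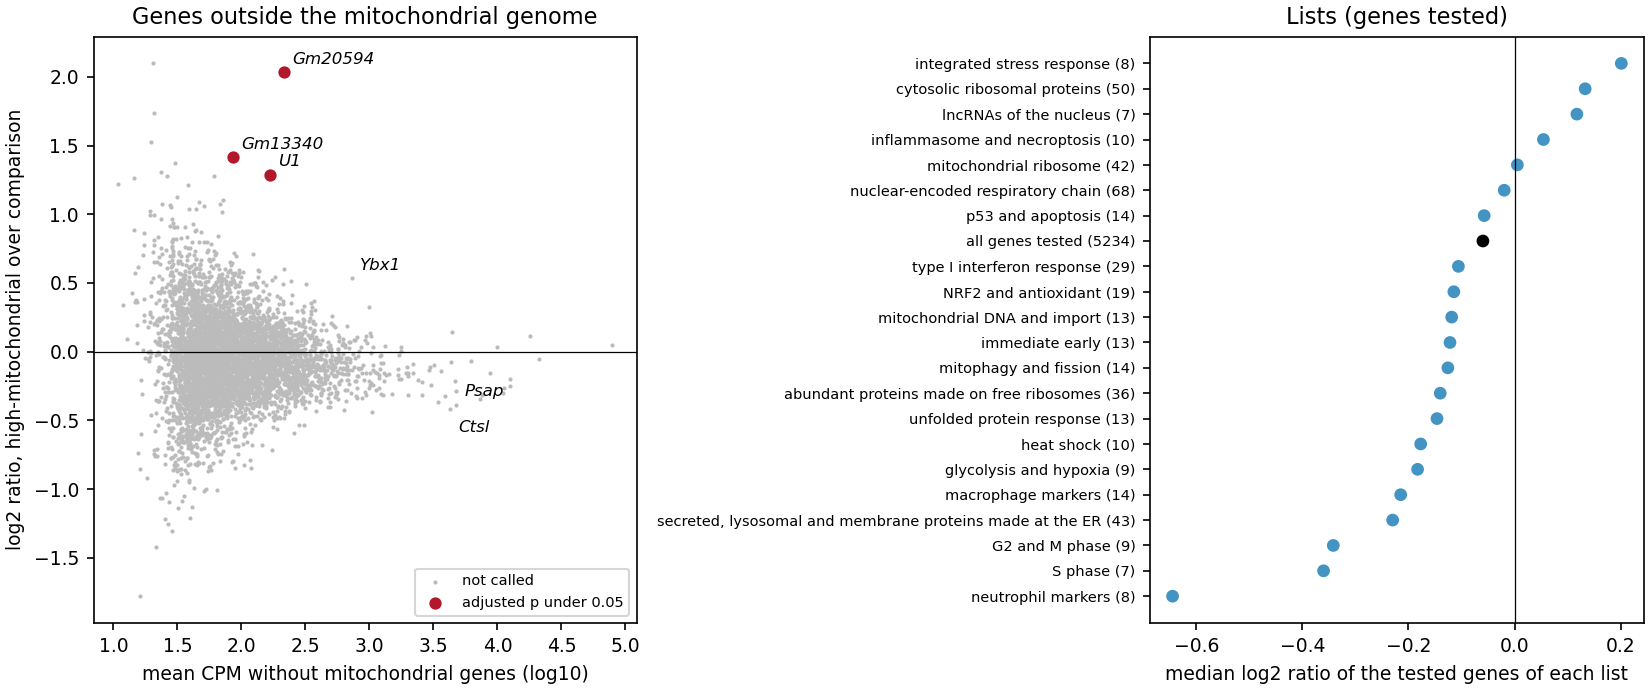
Left, log2 ratio of high-mitochondrial over comparison barcodes against mean level (log10 CPM, mitochondrial genes removed) for 5234 genes, with the 3 genes of adjusted p under 0.05 in red; right, the median log2 ratio of the tested genes of each list, with the number tested in brackets. The median of all genes is -0.06, that of the ER-made proteins -0.23 and that of the cytosolic ribosomal proteins 0.13.

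Stress and damage, with which such barcodes are often labelled, were read from lists of stress genes. In the integrated stress response, a translational program switched on by mitochondrial and ER stress, 8 of 18 genes were tested, 5 positive and 3 negative, with a median of 0.20 and 0 called. Ddit3, a transcription factor of that response, had a log2 ratio of 0.21 (SE 0.230) on 1 to 40 UMIs per library. The unfolded protein response had 13 of 15 genes tested, 11 of them negative, with a median of -0.15, and heat shock genes had 10 of 15 tested, 8 of them negative, with a median of -0.18. Immediate early genes, which can switch on while cells are being detached, had 13 of 20 tested with a median of -0.12, which was 0.16 at nearest non-mitochondrial depth, and Fos among them had a log2 ratio of -0.27.

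Lists of cell death and of mitochondrial quality control had medians between -0.13 and 0.05. The p53 and apoptosis list had 14 of 22 tested and a median of -0.06, or 0.14 at nearest depth, and the inflammasome and necroptosis list had 10 of 14 tested and a median of 0.05. The mitophagy and fission list, which covers removal of damaged mitochondria, had 14 of 16 tested, 12 negative, and a median of -0.13. The antioxidant genes of the transcription factor NRF2 had 19 of 20 tested and a median of -0.11, with Hmox1, the heme-degrading enzyme, at -0.28. No gene of these lists passed the adjusted threshold in either direction, and of all 5234 genes only 3 did. With so few calls the lists cannot decide on the label of stress or damage. The barcodes are named here by their mitochondrial share alone.

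Nuclear genes that build mitochondria gave no call in either direction. Of 86 nuclear genes of the respiratory chain 68 were tested, 31 had positive and 37 negative log2 ratios, 0 had an unadjusted p under 0.05 and the median was -0.02. The mitochondrial ribosome had 42 of 78 genes tested, 21 of them positive and 21 negative, with a median of 0.01. Genes for mitochondrial DNA upkeep and protein import had 13 of 29 tested, 2 positive and 11 negative, and a median of -0.12. Glycolysis and hypoxia genes had 9 of 19 tested and a median of -0.18; Gapdh, the glycolytic enzyme often used as a loading control, had 7 UMIs in all high-mitochondrial barcodes together and was not tested.

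Macrophage genes were present in the high-mitochondrial barcodes at levels close to those of the comparison barcodes. Lyz2, which codes for lysozyme, had 12938, 11867 and 15038 CPM in CYR61 replicates 1, 2 and 4 and 14518, 11728, 6772 and 14199 CPM in control replicates 1 to 4. Its log2 ratio against comparison barcodes was -0.20 (SE 0.118), though its CPM was higher in 4 of 7 libraries. Csf1r, the receptor for M-CSF, had a log2 ratio of -0.18 (SE 0.167), Adgre1, which codes for the F4/80 antigen, -0.01 (SE 0.154) and Cd68, a lysosomal glycoprotein of macrophages, -0.22 (SE 0.141). All 14 macrophage markers were tested, all 14 ratios were negative and 0 were called, with a median of -0.21, which was -0.07 against barcodes of nearest non-mitochondrial depth. Without the count filter Lyz2 was called with a log2 ratio of -0.41, but the median of all 24235 genes in that fit was -0.43. The markers took 3.57% of non-mitochondrial UMIs in high-mitochondrial and 3.82% in comparison barcodes.

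Marker lists of other cell types took small shares of UMIs, though single markers were often detected. Pf4, listed for megakaryocytes, had a UMI in 38.3% of high-mitochondrial and 48.0% of comparison barcodes, and S100a9, listed for neutrophils, in 21.3% and 21.6%. In the same order the osteoclast list took 0.214% and 0.223% of non-mitochondrial UMIs, and the megakaryocyte list 0.095% and 0.093%. The dendritic cell list took 0.033% and 0.042%, and the monocyte list 0.017% and 0.016%. Neutrophil genes, which include Ngp, Ltf and Camp for granule proteins, had 8 of 15 tested, all 8 negative, with a median of -0.64 and 4 at an unadjusted p under 0.05. That value depended on the comparison: the median was -0.19 without control replicate 4 and 0.10 when each high-mitochondrial barcode was set against those of nearest non-mitochondrial depth. Without barcodes 1 base from a deeper one it was -0.99. The list took 0.14% of non-mitochondrial UMIs in high-mitochondrial and 0.17% in comparison barcodes. For S phase, 7 of 21 genes were tested with a median of -0.36, and for the G2 and M phases 9 of 22 with a median of -0.34, 0 called in either. At nearest depth these medians were 0.07 and -0.10, and without barcodes 1 base from a deeper one they were -0.43 and -0.04. Of the listed B cell, T and NK cell, erythroid, stromal, and mast cell genes, 0 passed the count filter. Free RNA in a library can add UMIs of abundant genes to any barcode, and its part in these levels was not tested.

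Detection of macrophage genes followed depth. Csf1r had a UMI in 22.3% of high-mitochondrial and 32.5% of comparison barcodes, and Cd68 in 48.8% and 60.7%. When every barcode was thinned to 300 non-mitochondrial UMIs, Csf1r was found in 12.3% ± 3.31 and 11.2% ± 1.74, Cd68 in 23.0% ± 6.01 and 25.9% ± 6.23, and Lyz2 in 92.5% ± 8.64 and 95.5% ± 4.02 (SD, n = 7). At equal depth the class means of these 3 genes lay within 1 SD, but that SD is the spread between libraries. It does not measure the paired difference between the classes, which was not tested for detection. No cell type that should lack these genes was separated in these libraries, so the share that free RNA gives could not be read beside them.

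At equal depth the high-mitochondrial barcodes held slightly fewer different genes. After thinning to 300 non-mitochondrial UMIs the median number of genes was 222, 229 and 215.5 in CYR61 replicates 1, 2 and 4 and 214, 214, 227 and 222 in control replicates 1 to 4. The comparison barcodes had 229, 233 and 223 genes with CYR61 and 225, 230.5, 225 and 230 in controls. The high-mitochondrial class was lower in 6 of 7 libraries, and control replicate 3 was the exception. The mean was 220.5 ± 6.17 against 227.9 ± 3.63 genes, a difference of -7.43 (exact two-sided sign-flip permutation p = 0.0312; the smallest possible is 0.0156). Leaving out any 1 of the other 6 libraries gave p = 0.0625, with a difference between -8 and -5.92 in the exact permutation test, and leaving out control replicate 3 gave -9.

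Across the whole range of mitochondrial share, several of these differences ran as gradients through the threshold. Among barcodes of 500 to 1500 UMIs pooled over libraries, ER-made proteins took 12.9% of non-mitochondrial UMIs at a mitochondrial share up to 5%, then 12.7%, 11.95% and 11.3% in the next steps of 5 points, and 10.9%, 10.5% and 10.2% at 20% to 25%, 25% to 30% and above 30%. Malat1 took 1.33%, 1.44%, 1.47% and 1.68% below the threshold and 1.83%, 1.84% and 1.97% above it. Ybx1 stayed between 0.0523% and 0.0668% up to 20% and was 0.0866%, 0.0860% and 0.114% above. The libraries contribute unequally to these bands, so they mix composition of libraries with share; in control replicate 4 Malat1 was 1.67% at 20% to 25% and 1.90% at 15% to 20%. The bands are given as a description, with 99 barcodes in the highest and 2386 in the largest.

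**Figure D4:**
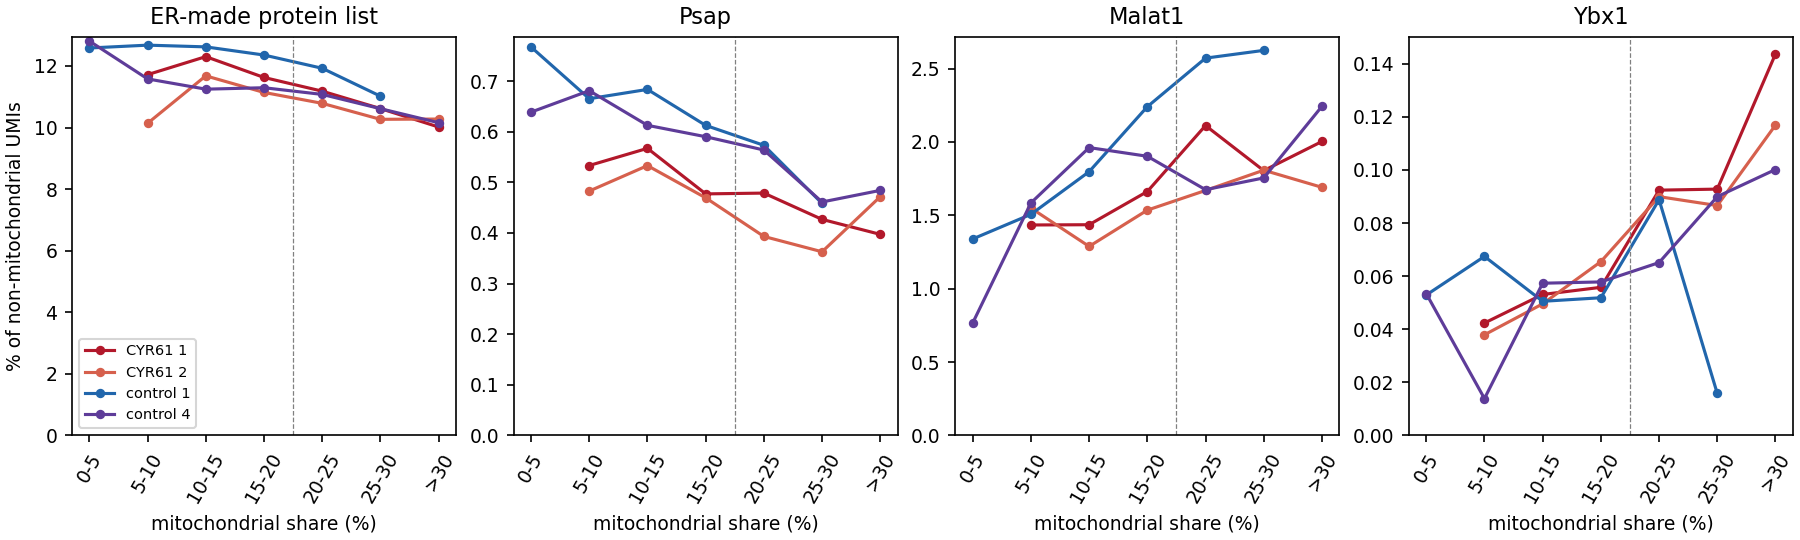
The percentage of non-mitochondrial UMIs from ER-made proteins, Psap, Malat1 and Ybx1 by mitochondrial share, in barcodes of 500 to 1500 UMIs of the 4 libraries with at least 50 high-mitochondrial barcodes; each line is a library and the dashed line is the 20% threshold. Pooled over all libraries, ER-made proteins go down in steps, at 12.9% in the lowest and 10.2% in the highest band.

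Interferon-related genes were higher with CYR61 in the high-mitochondrial barcodes. Of 520 genes tested between CYR61 replicates 1, 2 and 4 and the 4 control libraries, 10 (1.92%) were higher and 2 (0.385%) lower with CYR61 by edgeR's quasi-likelihood test, or 2.31% in both directions, and 65 (12.5%) had an unadjusted p under 0.05. The groups did not overlap, with every CYR61 library above every control library, for 27 genes (5.19%), and the other way round for 17 (3.27%). A gene could pass the count filter through 1 group alone, and such a gene had to differ. Ly6e, Ifi204, Bst2, Ms4a6c, Ifitm3, Fcgr1, Slfn2 and Slfn5 were below its level in every control library, and Sec61a1 in every fitted CYR61 library. The number of called or non-overlapping genes in these barcodes therefore carries no weight of its own. In the comparison barcodes 79 of 6325 genes (1.25%) were higher and 5 (0.0791%) lower, together 1.33%, and 472 (7.46%) had an unadjusted p under 0.05. These fits share no barcodes but come from the same libraries, and the count in the high-mitochondrial barcodes was fragile: it was 0 without CYR61 replicate 1, 0 without CYR61 replicate 2, 3 without control replicate 4, and between 18 and 49 without any of the other libraries.

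The called genes with the largest increases are known targets of interferon. Ly6e, Ifi204, Bst2, Ms4a6c, Ifitm3, Fcgr1, Slfn2 and Slfn5 entered the test through the CYR61 libraries alone, as given above. Their adjusted p-values therefore carry no weight of their own, and their levels are given as a description. Ly6e, a membrane protein that blocks entry of viruses, had 446, 341 and 810 CPM in the high-mitochondrial barcodes of CYR61 replicates 1, 2 and 4, against 0, 0, 63.9 and 63.7 CPM in control replicates 1 to 4 (log2 ratio 3.15, SE 0.575, edgeR adjusted p = 0.00781). Every CYR61 library was several times above the highest control. Ifi204 (chr1:173747293-173766943), a nuclear DNA sensor of the PYHIN family, had 578, 433 and 405 CPM with CYR61, against 29.2, 64.4, 0 and 122 CPM in controls (log2 ratio 2.37, SE 0.459, edgeR adjusted p = 0.00908). In CYR61 replicate 3, outside the fit, its 3 barcodes held 3 Ifi204 UMIs. The control values of both genes rest on 0 to 23 UMIs per library.

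Further called increases covered membrane proteins of macrophages and antiviral factors, and the same limit holds for all of them except C1qb and Cd47. Bst2, tetherin, which holds budding viruses at the cell surface, had 421, 316 and 405 CPM with CYR61, against 87.5, 0, 127.8 and 63.7 CPM in controls (log2 ratio 2.35, edgeR adjusted p = 0.0104). Ms4a6c, a tetraspanning membrane protein, had 413, 418 and 405 CPM with CYR61, against 29.2, 0, 127.8 and 101 CPM in controls (log2 ratio 2.27). The 3 fitted CYR61 libraries did not overlap the controls for either gene, but the 3 barcodes of CYR61 replicate 3 held 0 UMIs of Bst2, and also 0 of Fcgr1. Ifitm3, which hinders fusion of viruses with endosomes, had a log2 ratio of 2.18 (SE 0.543, edgeR adjusted p = 0.0341). Fcgr1, the high-affinity Fc gamma receptor, had 2.05, and the schlafen genes Slfn2 and Slfn5, which restrain immune cell growth and viral replication, had 1.98 and 1.73. C1qb, a chain of the complement component C1q, had 1.499 and Cd47, the surface signal against phagocytosis, had 1.61 (SE 0.357, edgeR adjusted p = 0.0128). With the date stamp as a term Cd47 and Fcgr1 were no longer called, nor were they by DESeq2.

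These values lay beside those of the comparison barcodes from the same libraries. There the log2 ratios of CYR61 over control were 2.99 for Ly6e, 1.95 for Ifi204, 2.53 for Bst2, 1.89 for Ms4a6c, 3.01 for Ifitm3, 2.36 for Fcgr1, 1.61 for Slfn2, 1.66 for Slfn5, 0.97 for C1qb and 0.74 for Cd47. The last 2 were not called in the comparison barcodes, with edgeR adjusted p-values of 0.101 for C1qb and 0.192 for Cd47. Only 4 of the 36 genes of the type I interferon list passed the count filter in the high-mitochondrial barcodes, since control libraries held few UMIs of the others. All 4 had the fitted CYR61 libraries above every control library, 3 were called, and their median log2 ratio was 2.36, against 0.00 over the 520 genes; a gene that passes the filter on its high group alone had to differ, so this count carries no weight of its own. In the comparison barcodes 31 were tested and 28 called, with a median of 3.07. Ifit3, a cytosolic sensor of foreign RNA that did not pass the filter, was at 12, 24, 2 and 4 UMIs in CYR61 replicates 1 to 4 and at 0 in all 4 controls.

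Summed over the whole list, interferon-response genes took 0.550%, 0.494%, 0.800% and 0.856% of non-mitochondrial UMIs in the high-mitochondrial barcodes of CYR61 replicates 1 to 4, against 0.061%, 0.077%, 0.102% and 0.096% in control replicates 1 to 4. The comparison barcodes had 0.575%, 0.524%, 0.966% and 0.946% with CYR61, against 0.103%, 0.113%, 0.103% and 0.098% in controls. In both classes the 4 CYR61 libraries lay above the 4 controls, and the CYR61 libraries of the later date stamp lay above those of the earlier one. Within the CYR61 group, Xist was present at the earlier date stamp and Y-linked RNA at the later one, so these cannot be told apart. The list was also present in barcodes under 300 genes, at 0.505%, 0.417%, 0.913% and 0.884% with CYR61, against 0.093%, 0.103%, 0.087% and 0.089% in controls. The part of RNA shared between barcodes of a library in the interferon signal of the high-mitochondrial barcodes was not tested.

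The 2 genes called lower were Sec61a1 and Gm20594. Sec61a1 (chr6:88503579-88518905), the pore through which new proteins enter the ER, had 82.6, 70.7 and 116 CPM in the high-mitochondrial barcodes of CYR61 replicates 1, 2 and 4, against 321, 193, 831 and 1019 CPM in control replicates 1 to 4. These are 10, 23 and 2 UMIs with CYR61 and 11, 3, 13 and 192 UMIs in controls, so only control replicate 4 has many. The groups did not overlap, with a log2 ratio of -3.17 (SE 0.481, edgeR adjusted p = 0.00156), but the left-out CYR61 replicate 3 held 2 UMIs, or 727 CPM, above 2 of the 4 controls. Sec61a1 passed the count filter through control libraries alone, so its call carries no weight of its own. In the comparison barcodes Sec61a1 had 126, 109 and 200 CPM in CYR61 replicates 1, 2 and 4, against 244, 204, 261 and 487 CPM in controls, a log2 ratio of -1.09 (edgeR adjusted p = 0.181). Gm20594 had a log2 ratio of -1.78 (edgeR adjusted p = 0.0287) with overlapping groups, and -1.94 in the comparison barcodes. That call was lost with the date stamp as a term, with a term for Xist and Y-linked RNA and by DESeq2.

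**Figure D5:**
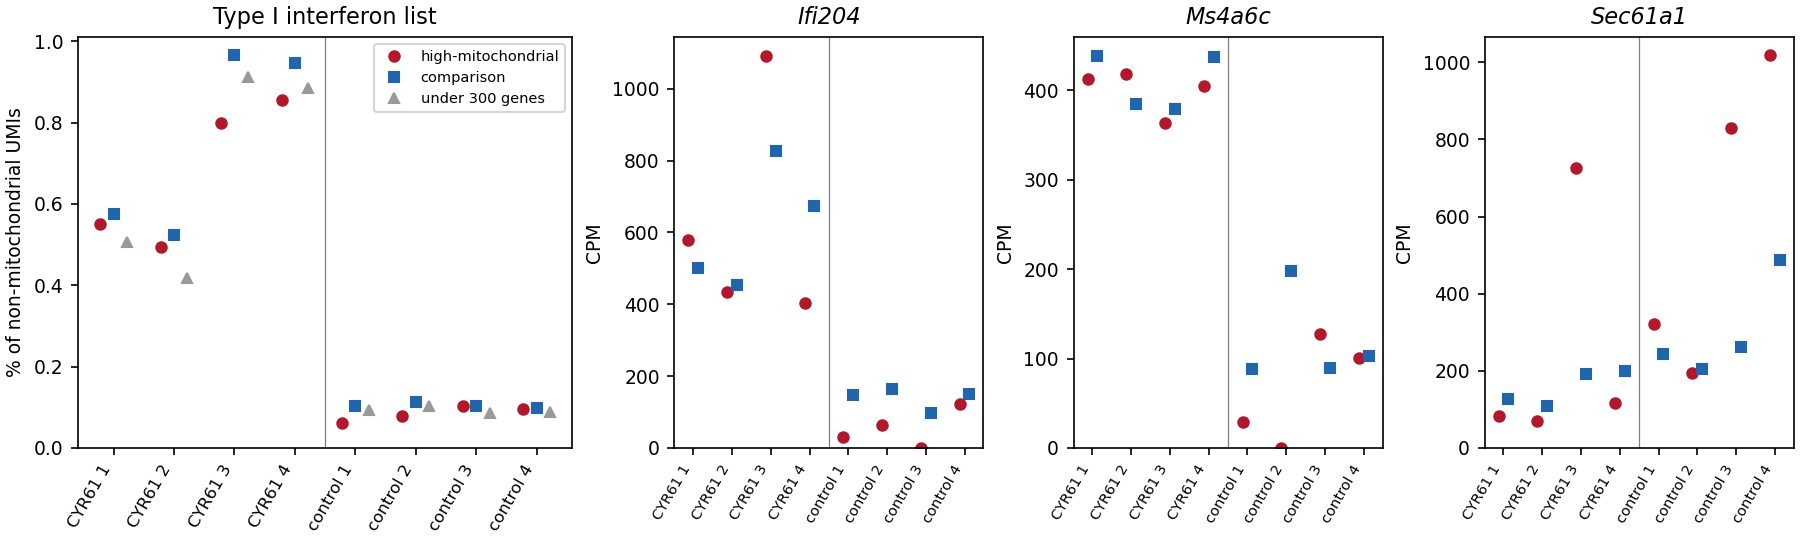
Left, percentage of non-mitochondrial UMIs from the type I interferon list by library in high-mitochondrial barcodes, comparison barcodes and barcodes under 300 genes; right, CPM of Ifi204, Ms4a6c and Sec61a1 in the first 2 of these classes. The interferon share is 0.494% to 0.856% in high-mitochondrial barcodes of CYR61 libraries and 0.061% to 0.102% in those of controls; CYR61 replicate 3 rests on 3 barcodes.

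Other lists held few called genes between CYR61 and control in the high-mitochondrial barcodes. Of 37 ER-made protein genes tested 0 were called, with a median log2 ratio of 0.15, and of 19 cytosolic ribosomal protein genes 0 were called, with a median of -0.21. The antioxidant NRF2 list had 7 genes tested, 6 of them negative, 0 called and a median of -0.80. Hmox1 within it had 215, 264 and 116 CPM with CYR61, against 554, 322, 383 and 398 CPM in controls. Its log2 ratio was -0.95 (edgeR adjusted p = 0.201). Hmox1 was below the level of the count filter in every fitted CYR61 library and above it in every control library. Its groups therefore had to differ, and their lack of overlap carries no weight. Of all 520 genes tested, 17 (3.27%) had groups apart in that direction. Of the macrophage markers 12 were tested and 2, C1qb and Fcgr1, were called higher, against 10 of all 520 genes (1.92%). Fcgr1 passed the count filter through the CYR61 libraries alone, so its call carries no weight of its own. C1qb was not called in the comparison barcodes (edgeR adjusted p = 0.101). Ccn1, the gene that codes for the added protein, had 1 UMI in all high-mitochondrial barcodes, in CYR61 replicate 1.

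A test of whether the response to CYR61 differed between the 2 classes of barcodes called 0 of 5234 genes (0%) by edgeR's quasi-likelihood test of the interaction, and 194 (3.71%) had an unadjusted p under 0.05. The smallest p was that of Sec61a1 (interaction log2 -1.50, unadjusted p = 0.000232). Prc1 and Kif23, which build the midzone of the mitotic spindle, Ing1, a chromatin reader, and Slc35a5, a nucleotide sugar transporter, followed with unadjusted p-values of 0.00042 to 0.00137. For these 4 genes control libraries held 0 to 4 UMIs in the high-mitochondrial barcodes, so their fitted ratios are not given. A difference in response between the classes was not detectable at this depth, which ranged from 15518 to 325520 non-mitochondrial UMIs per library in the high-mitochondrial barcodes that were fitted.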

How the data were processed

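HIVE single-cell RNA-seq was deposited as 8 tables of raw counts, each with 5000 barcodes of 12 bases; per the submitters' processing notes the build was mm10. Sources used here give no aligner, counter or handling of multiply mapped reads. The count values are UMIs, as whole numbers per gene and barcode. Barcodes with at least 300 genes were split at 20% mitochondrial UMIs. Counts were summed per library and class without mt- genes and tested with edgeR 4.0.16 (R 4.3.3; TMM, filterByExpr, quasi-likelihood, Benjamini-Hochberg over all genes tested, adjusted p under 0.05), in libraries with at least 10 barcodes of each class; DESeq2 1.42.0 was an alternative. Class comparisons had the library as a block; CYR61 against control had no covariate, as the labels name only the 2 conditions. Replicate numbers did not pair the samples (see the closing section). Barcode measures were tested with exact permutation or sign-flip tests (Python 3.11.15, scipy 1.17.1). Intervals are 95% Wilson intervals and cover counting error only. The steps were tested on simulated data.

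The barcodes and gene lists were chosen with earlier results of these data known. Named genes were called genes with the same direction in every library (class) or groups that do not overlap (CYR61), at least 20 CPM in the higher group, without Gm models, plus the 5 smallest interaction p-values and a fixed set of genes; any other is said to be picked after its values were seen. Sequences and positions are from GENCODE vM21 transcripts (GRCm38). Levels are CPM of non-mitochondrial UMIs and are not adjusted for gene length, so genes are not ranked by level. Alternatives covered thresholds, filters, scaling, comparison barcodes, date stamps and left-out libraries, and 14 were chosen after seeing the data. CYR61 replicate 3 had 3 high-mitochondrial barcodes and entered no fit.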

Additional observations from a re-analysis of the deposited data

Results flagged for a closer look

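Control replicate 4 stood apart from the other control libraries in its share of high-mitochondrial barcodes, at 40.1%, when the gap to the nearest library was set against the range of the group. This was looked for in 23 groups of 4 libraries, of which chance flags about 1 in 20. The difference between CYR61 and control in that share was 3.67 percentage points within the earlier date stamp and -22.1 points within the later one, with an exact permutation p of 0.0556 for the difference between dates; the later value rests on control replicate 4. Barcodes under 300 genes, which enter no comparison of genes, held the type I interferon list at 0.505%, 0.417%, 0.913% and 0.884% of non-mitochondrial UMIs in CYR61 replicates 1 to 4, above the highest control library, at 0.103%.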

How the results depend on the processing

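No alternative gave p under 0.05 for the share of high-mitochondrial barcodes between CYR61 and control, but either date stamp alone (exact permutation p = 0.333, the smallest that 6 assignments allow) and the replicate block could not reach it. The difference of -9.21 points was 0.00379 points when mt-Rnr1 and mt-Rnr2 were left out and 3.67 points within the earlier date stamp, and lay between -12.6 and -0.780 points when 1 library was left out. Pairing CYR61 and control by replicate number (replicate block) gave -9.21 points with an exact permutation p of 0.625.

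The count of 3 genes between the classes was 5 with DESeq2, 13 without the filter on low counts, 7 against barcodes of nearest depth, 22 against barcodes of all depths, 18 against barcodes at or below 10%, 22 with every listing of a barcode, and 0 without the library block. It was 1 in control libraries alone, in CYR61 libraries alone, in either date stamp alone, among barcodes listed in 1 library and after removal of mitochondrial copies and ribosomal RNA, and 2 to 4 with 1 library left out. Against barcodes of all depths Fth1 (log2 ratio 0.75) and Ftl1 (0.63) were higher in high-mitochondrial barcodes and called, against -0.05 and -0.08 within the same range of total UMIs and 0.05 and 0.06 at nearest non-mitochondrial depth.

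The count of 12 genes between CYR61 and control in high-mitochondrial barcodes was 43 without the filter, 19 with the replicate block, 29 and 0 within the earlier and later date stamps, 29 above a 30% threshold, 0 with every listing, 243 without barcodes 1 base from a deeper one, 23 with a term for Xist and Y-linked RNA, 386 in the 4 libraries with at least 50 such barcodes, and 0 to 49 with 1 library left out. Same-numbered libraries correlated at -0.269, 0.189 and 0.350 over 520 genes, so the numbers were not taken as pairs; with the block Cd47, Fcgr1 and Gm20594 were no longer called. The cause of these shifts was not tested; the number of genes tested moved with the filter. The interaction count was 0 in every alternative run. So was the count of mitochondrial genes, but a call was hardly possible with 7 libraries and still less with 5 or 6. The thinned gene count was -5.8 (p = 0.0625, exact permutation, the smallest for 5 libraries) without barcodes 1 base from a deeper one, and -9 to -5.92 with 1 library left out.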
